A study of Mus musculus with 26 samples.

Results

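The inhibitor of kappa B family is described here by its mRNA in mouse Ba/F3/gp130 cells stimulated through natural or synthetic IL-22 receptors. Every probe set annotated to exactly 1 of the symbols Nfkbia, Nfkbib, Nfkbie, Nfkbid, Nfkbiz and Bcl3 was taken. That gave 6 genes, each with 1 probe set, of 19938 genes measured. RNA was read on 26 Affymetrix Mouse Gene arrays. Ba/F3 is a murine pro-B line that grows on interleukin-3 or, in this derivative, on Hyper-IL-6, a fusion of IL-6 with its soluble receptor. All groups carried gp130, the signal chain of the IL-6 family, and all went through 4 washes and 4 h of serum-free starvation. The cells with synthetic receptors had chains that bind fluorescent proteins, IL-22Rα1 through a GFP nanobody and IL-10R2 through an mCherry nanobody. They received a GFP-mCherry fusion, which can bind both chains (n = 6), or dimeric mCherry-Fc, which has only the IL-10R2 chain to bind (n = 6), or nothing (n = 6). The cells with natural receptors had unmodified IL-10R2 and IL-22Rα1 and received IL-22 (n = 4) or nothing (n = 4). Protein was given at 100 ng/ml for 2 h. No group received a control protein, and whether a line was 1 clone or a pool is not given in the sources used here.

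Inhibitor of kappa B proteins hold NF-kB transcription factors through ankyrin repeats. The classical members, encoded by Nfkbia, Nfkbib and Nfkbie, keep NF-kB dimers in the cytoplasm until the IKK kinase complex marks them for destruction by the proteasome. NF-kB in turn switches on the Nfkbia gene, the best known negative feedback loop of the pathway. The atypical members, encoded by Nfkbid, Nfkbiz and Bcl3, work mainly in the nucleus, where they bind NF-kB p50 or p52 homodimers on DNA and raise or lower the output of particular genes. IL-22 itself signals mainly through STAT3, and Bcl3 and Nfkbiz have also been described as STAT3 targets.

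Promoters are shown because these genes are read by NF-kB or STAT factors in other systems. All 6 were also called higher with GFP-mCherry, though by different amounts, and not all with mCherry-Fc. RefSeq promoter windows on GRCm38.p6 were available for 5 of the 6 members, as 7 windows of 250 bases before to 50 after an annotated start. The kappa B consensus was searched on both strands, and 4 of these 5 members held it in at least 1 window. By window, 4 of the 7 held it. Of 32851 promoter windows of 300 bases, 8.46% held it. The STAT motif TTCNNNGAA, searched likewise, was in windows of 1 member and in 8.3% of all windows. No kappa B match overlapped a STAT match. The stretches below run from 250 bases before to 30 after the start, on the strand of the gene, with the kappa B match in capitals.
Nfkbia, chr12:55492618-55492897, minus strand: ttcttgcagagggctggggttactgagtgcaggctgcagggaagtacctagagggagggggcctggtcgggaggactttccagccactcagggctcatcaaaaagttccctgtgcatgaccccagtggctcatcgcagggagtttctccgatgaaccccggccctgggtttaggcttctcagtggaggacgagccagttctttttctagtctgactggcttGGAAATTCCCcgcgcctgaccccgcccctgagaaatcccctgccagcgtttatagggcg
Nfkbie, chr17:45555450-45555729, plus strand: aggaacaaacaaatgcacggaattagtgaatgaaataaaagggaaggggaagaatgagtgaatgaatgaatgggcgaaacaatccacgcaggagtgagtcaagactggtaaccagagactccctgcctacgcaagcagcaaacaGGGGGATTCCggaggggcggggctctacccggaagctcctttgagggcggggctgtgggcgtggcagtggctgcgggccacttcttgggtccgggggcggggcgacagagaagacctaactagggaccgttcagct
Bcl3, chr7:19822726-19823005, minus strand: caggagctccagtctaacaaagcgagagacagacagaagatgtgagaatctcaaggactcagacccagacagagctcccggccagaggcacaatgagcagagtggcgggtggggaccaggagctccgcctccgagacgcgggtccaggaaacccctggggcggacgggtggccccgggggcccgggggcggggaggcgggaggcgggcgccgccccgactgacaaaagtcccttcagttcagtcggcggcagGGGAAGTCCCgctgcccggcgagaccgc
Nfkbib, chr7:28766615-28766894, minus strand, no match: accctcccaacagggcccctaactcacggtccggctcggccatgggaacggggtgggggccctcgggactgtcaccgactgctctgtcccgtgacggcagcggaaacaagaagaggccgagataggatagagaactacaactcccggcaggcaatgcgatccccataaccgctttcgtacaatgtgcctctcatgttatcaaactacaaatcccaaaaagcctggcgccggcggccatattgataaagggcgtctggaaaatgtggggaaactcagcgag
The first base of the match stood at position -29 from the start in Nfkbia, at -106 in Nfkbie and at position 3 of the transcript in Bcl3. Nfkbid had 3 annotated starts. The second of its windows held GGGACTTCCC at -226 and GGAATTCCCC at -181. The others held STAT matches, TTCCAGGAA at -167 and TTCAGAGAA at -139. A match in these letters is no evidence that a factor was bound in these cells.

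Values are log2 intensities per probe set, between 1.79 and 14.31 over all probe sets, and array medians lay between 6.06 and 6.28. Intensities of different probe sets are not on a common scale, so members are compared only by their differences, and marker levels are a rough reading. Of 13 markers of pro-B cells, Cd79a, Cd79b and Il3ra stood above 8 in every group, while 8 others, among them Pax5, Ebf1 and Il7r, stood below 6 in every group. The natural receptor arrays fell apart by the replicate number in their labels. The summed log2 level of 8 myeloid markers was 63.2 on the IL-22 array numbered 5 and 61 and 63.2 on the untreated arrays numbered 4 and 5. On the natural arrays numbered 1 to 3 it was 50.4 to 51.1 with IL-22 and 49.8 and 50.1 without. All synthetic receptor arrays lay between 43.8 and 46.2. Mpo, the granule peroxidase of granulocyte precursors, reached 10.62 to 11 on the natural arrays numbered 4 and 5, against 6.97 to 7.19 on those numbered 1 to 3. Itgam, Lyz2 and Adgre1 were higher there too, Itgam at 11.73 to 12.05 against 8.73 to 8.98. Itgam was 4.72 to 6.02 in synthetic cells. Fcgr1 ran from 5.55 to 7.63 over all arrays and was called higher with IL-22 than without. Its mean was 7.42 with IL-22, 6.98 in untreated natural cells and 5.9 to 6.08 in the synthetic groups. The other markers of the list moved little over all arrays, Csf1r from 5.7 to 6.37, Elane from 5.88 to 6.47 and Cd14 from 4.54 to 5.4. The summed level of 4 erythroid markers was 34.7 to 35.9 with IL-22, against 36.8 to 37.2 in untreated natural cells, and 37.5 to 38.6 in synthetic cells. In bulk RNA, a change in the make-up of the cells and a change in RNA per cell cannot be told apart. Results of the members in natural receptor cells are therefore given with and without the arrays numbered 4 and 5, as are the counts of the pathway lists under IL-22. The part of the myeloid and erythroid markers in them was not tested.

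GFP-mCherry raised all 6 family members in synthetic receptor cells, by 1.27-fold to 9.37-fold (limma, Benjamini-Hochberg adjusted p under 0.05 over all 19938 genes). In the same comparison 14.2% of all genes were called higher and 11.8% lower. The median log2 difference was 1.89 over the 6 members and -0.04 over all genes. Nfkbia had the largest rise of all 19938 genes, Nfkbie ranked 3 and Nfkbiz ranked 5. For all 6 members every one of the 6 treated arrays lay above every untreated array, as it did for 10.0% of all genes. The plot of log2 intensity by array shows the 5 groups for each gene.

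**Figure D1:**
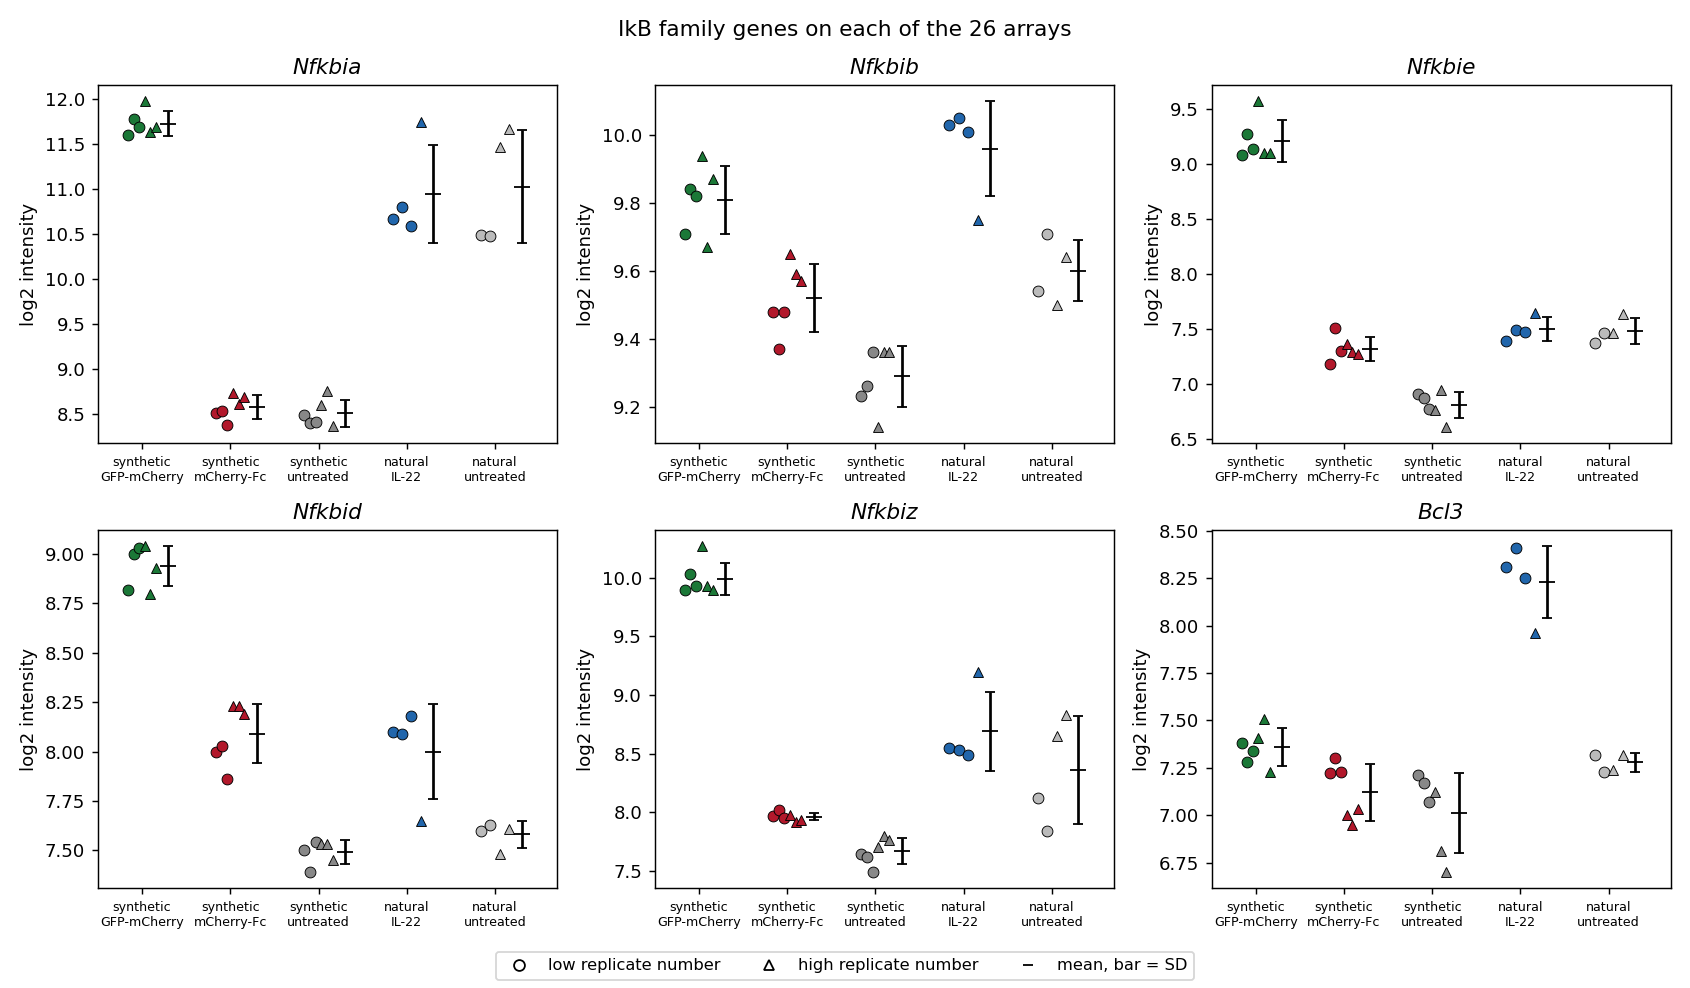
Log2 intensity of each member on each array by group, with low numbers (natural 1 to 3, synthetic 7 to 11) as circles, high numbers (natural 4 and 5, synthetic 12 to 15) as triangles, and the mean with SD beside them. For Nfkbia the 6 GFP-mCherry arrays sit between 11.61 and 11.98, above all mCherry-Fc and untreated synthetic arrays, and the natural arrays form 2 levels by number. For Bcl3 the 4 IL-22 arrays stand above every other array.

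Among the classical members, Nfkbia, which encodes IkB alpha, the rapidly resynthesised inhibitor (probe set 10400405, chr12:55489409-55492647), responded most. Its lowest, median and highest log2 intensities were 11.61, 11.69 and 11.98 with GFP-mCherry, against 8.37, 8.45 and 8.76 without. The groups were far apart and each was tight, with a log2 difference of 3.23 (SE 0.17, 95% interval 2.87 to 3.58, 9.37-fold, limma's adjusted p = 1.57e-13). Nfkbie, which encodes IkB epsilon, an inhibitor of slower resynthesis (probe set 10445412, chr17:45555700-45563169), had 9.08, 9.12 and 9.57 with GFP-mCherry, against 6.61, 6.82 and 6.95 without. Its highest array was GFP-mCherry number 12, and no untreated array came near the treated ones. They differed by 2.40 on the log2 scale (SE 0.08, 95% interval 2.24 to 2.56, 5.27-fold, adjusted p = 2.11e-18). Nfkbib, which encodes IkB beta, a more stable inhibitor (probe set 10561516, chr7:28758251-28766644), had 9.67, 9.83 and 9.94 with GFP-mCherry, against 9.14, 9.31 and 9.36 without. The groups did not overlap, but the gap was narrow. Its log2 difference was 0.52 (SE 0.06, 95% interval 0.39 to 0.65, 1.44-fold, adjusted p = 7.07e-07).

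Among the atypical members, Nfkbiz, which encodes IkB zeta, an inducible co-activator of secondary response genes (probe set 10439936, chr16:55811375-55838954), had 9.9, 9.93 and 10.27 with GFP-mCherry, against 7.49, 7.67 and 7.8 without. The treated arrays lay close together except number 12, the highest. Treated arrays were higher by 2.33 on the log2 scale (SE 0.12, 95% interval 2.07 to 2.58, 5.01-fold, limma's adjusted p = 1.51e-13). Nfkbid, which encodes IkBNS, a nuclear regulator needed for some mouse B cell subsets (probe set 10551891, chr7:30421731-30428749), had 8.8, 8.96 and 9.04 with GFP-mCherry, against 7.39, 7.52 and 7.54 without. Both groups were tight and separate, 1.44 apart on the log2 scale (SE 0.08, 95% interval 1.29 to 1.6, 2.72-fold, adjusted p = 1.3e-13). Bcl3, a partner of p50 and p52 first found at a translocation in chronic lymphocytic leukaemia (probe set 10560685, chr7:19808462-19822824), had 7.23, 7.36 and 7.51 with GFP-mCherry, against 6.7, 7.1 and 7.21 without. The lowest treated array was only just above the highest untreated one. Its log2 difference was 0.35 (SE 0.08, 95% interval 0.17 to 0.52, 1.27-fold, adjusted p = 0.00344), and by size it ranked 1026.

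mCherry-Fc raised 3 of the 6 members, Nfkbid, Nfkbie and Nfkbib, and none by more than 1.51-fold. Quantile normalization left 2 of these calls, and centring each array on its median gave 5. Of all genes, 14.0% were called higher and 13.0% lower. The median log2 difference was 0.26 over the members and -0.04 over all genes. For 4 members the treated and untreated arrays did not overlap, with the treated arrays higher, as for 7.85% of all genes. This comparison and that of GFP-mCherry share the 6 untreated synthetic arrays.

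Nfkbid had 7.86, 8.11 and 8.23 (lowest, median, highest log2 intensity) with mCherry-Fc, all above the untreated arrays, whose highest was 7.54. The log2 difference was 0.60 (SE 0.08, 95% interval 0.44 to 0.75, limma's adjusted p = 2.96e-06). Nfkbie had 7.18, 7.3 and 7.51, with an untreated maximum of 6.95, and a log2 difference of 0.51 (SE 0.08, 95% interval 0.35 to 0.66, adjusted p = 3.27e-05). These were the clearest members under mCherry-Fc. Nfkbib had 9.37, 9.52 and 9.65, just above the untreated maximum of 9.36, and a log2 difference of 0.24 (SE 0.06, 95% interval 0.11 to 0.37, adjusted p = 0.00722). With replicate number as a fixed block, the Nfkbib difference was 0.24 at an adjusted p of 0.0732. With the number as a random block it was 0.24 (adjusted p = 0.00441).

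Nfkbiz with mCherry-Fc had 7.92, 7.96 and 8.02 on the 6 arrays, a narrow band that lay above the untreated maximum of 7.8. Its log2 difference was 0.29 (SE 0.12, 95% interval 0.04 to 0.55) and missed the threshold (limma's adjusted p = 0.0775). That SE comes from 1 fit of all 5 groups, and Nfkbiz had an SD of 0.34 and 0.46 in the natural groups. In the compared groups the SD was 0.03 with mCherry-Fc and 0.11 without. Fitted on the compared groups alone, the difference was 0.29 (SE 0.06, adjusted p = 0.00246). It was 0.40 on low numbers and 0.19 on high numbers. With replicate number as a fixed block it was 0.29 (adjusted p = 0.0227), and as a random block 0.29 (adjusted p = 0.0376). Nfkbia had 8.38, 8.58 and 8.74 with mCherry-Fc, inside the untreated spread, and a log2 difference of 0.07 (95% interval -0.28 to 0.43, adjusted p = 0.78). The interval does not reach the size of its response to GFP-mCherry. Bcl3 had 6.95, 7.13 and 7.3, overlapping the untreated arrays, with a log2 difference of 0.11 (95% interval -0.06 to 0.28, adjusted p = 0.34).

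Set directly against mCherry-Fc, GFP-mCherry gave higher mRNA of 5 members (4 after centring, without Nfkbib) and lower mRNA of none, where 0.722% of all genes were called higher and 0.371% lower. Nfkbia differed by 3.15 on the log2 scale (SE 0.17, 8.9-fold, limma's adjusted p = 5.11e-13), the largest difference of all genes. Nfkbiz differed by 2.03 (SE 0.12, 4.09-fold, adjusted p = 3.27e-12) and ranked 3. Nfkbie differed by 1.89 (SE 0.08, 3.71-fold, adjusted p = 1.05e-15) and ranked 6. These 3 genes thus separated the 2 ligands by more than nearly all others measured. Nfkbid differed by 0.85 (SE 0.08, 1.8-fold, adjusted p = 1.49e-08). Nfkbib differed by 0.29 (SE 0.06, 1.22-fold, adjusted p = 0.015). With replicate number as a fixed block it was 0.28 (adjusted p = 0.325), and as a random block 0.29 (adjusted p = 0.00786). The groups did not overlap for these 5 members, with GFP-mCherry higher, as for 1.51% of all genes. Bcl3 overlapped, with a log2 difference of 0.23 (95% interval 0.06 to 0.41, adjusted p = 0.313).

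**Figure D2:**
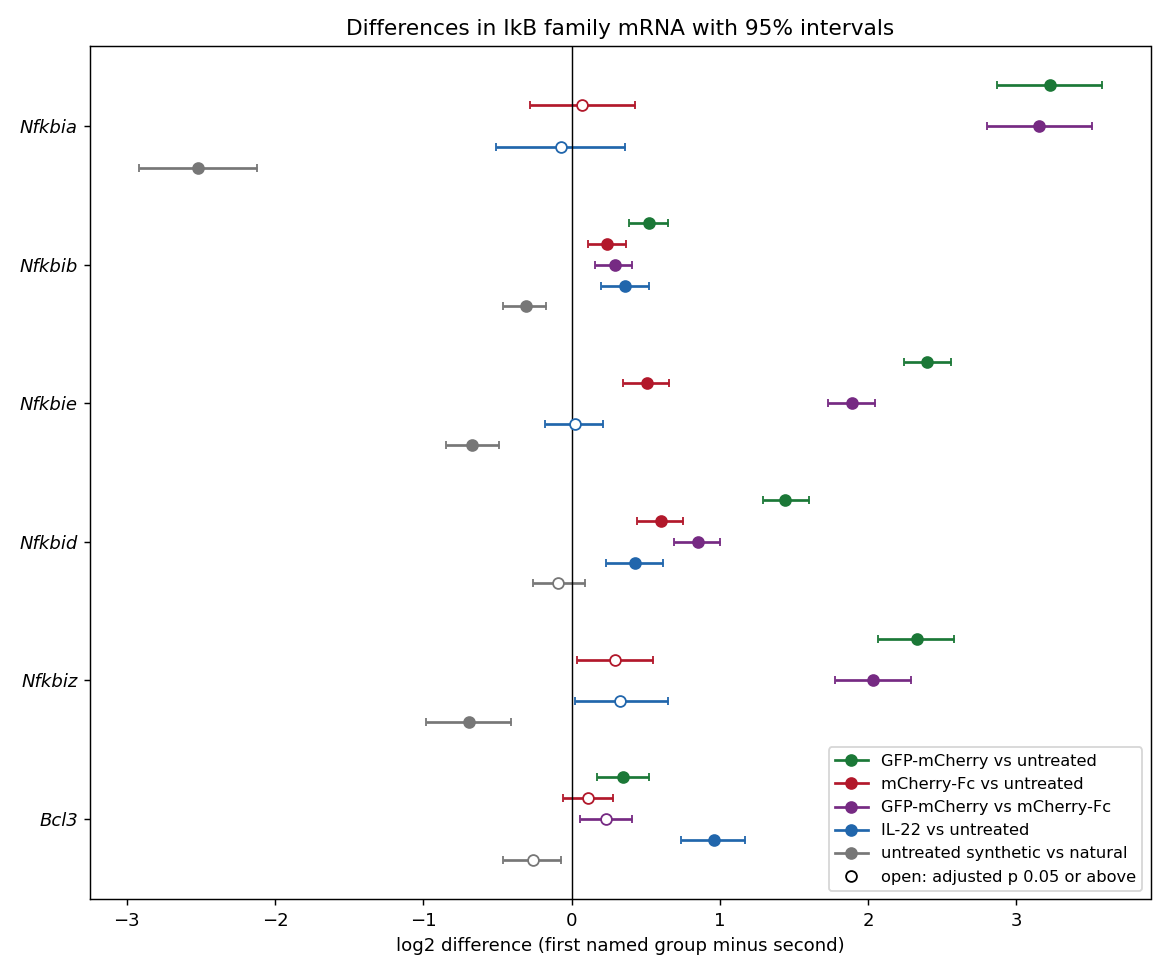
Log2 difference of each member in 5 comparisons (first named group minus second) with 95% intervals of limma's fit. Filled points have an adjusted p under 0.05 and open points do not. Under GFP-mCherry the points run from 0.35 for Bcl3 to 3.23 for Nfkbia, while under IL-22 Bcl3 is farthest right at 0.96.

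IL-22 raised 3 of the 6 members in natural receptor cells, Bcl3, Nfkbid and Nfkbib, where 5.39% of all genes were called higher and 6.03% lower. The median log2 difference was 0.35 over the members and -0.02 over all genes. For the same 3 members all 4 IL-22 arrays lay above all 4 untreated arrays, as for 5.03% of all genes. On the arrays numbered 1 to 3 alone 4 members were called higher. The arrays numbered 4 and 5 alone, 1 with IL-22 and 2 without, gave 1 call, Bcl3. In every fit on high numbers the lone IL-22 array is assumed to vary like the other groups, so a value that misses the threshold there says little.

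Bcl3 had 8.31, 8.41, 8.25 and 7.96 (log2 intensity, arrays numbered 1, 2, 3 and 5) with IL-22, against 7.32, 7.23, 7.24 and 7.32 (numbers 2, 3, 4 and 5) without. The untreated arrays were almost level, and the IL-22 array numbered 5 was the lowest of the treated ones. The log2 difference was 0.96 (SE 0.10, 95% interval 0.74 to 1.17, 1.94-fold, limma's adjusted p = 6.63e-08). It was 1.05 on arrays numbered 1 to 3 (adjusted p = 7.47e-08) and 0.68 on those numbered 4 and 5 (adjusted p = 0.0294). Nfkbid had 8.1, 8.09, 8.18 and 7.65 with IL-22, against 7.6, 7.63, 7.48 and 7.61 without. The IL-22 array numbered 5 stood just above the untreated arrays and well below the other treated ones. Over all arrays the groups differed by 0.43 on the log2 scale (SE 0.09, 95% interval 0.23 to 0.62, 1.34-fold, adjusted p = 0.00178). It was 0.51 on arrays numbered 1 to 3 (adjusted p = 0.000376) and 0.10 on those numbered 4 and 5 (adjusted p = 0.754).

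Nfkbib had 10.03, 10.05, 10.01 and 9.75 with IL-22, against 9.54, 9.71, 9.5 and 9.64 without. Again the IL-22 array numbered 5 was the lowest of its group. The groups differed by 0.36 on the log2 scale (SE 0.08, 95% interval 0.2 to 0.52, 1.28-fold, limma's adjusted p = 0.00142). It was 0.40 on arrays numbered 1 to 3 (adjusted p = 0.0011) and 0.18 on those numbered 4 and 5. With replicate number as a fixed block it was 0.31 (adjusted p = 0.0536), and as a random block 0.35 (adjusted p = 0.000764).

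Nfkbiz had 8.55, 8.53, 8.49 and 9.2 with IL-22 (numbers 1, 2, 3 and 5), against 8.12, 7.84, 8.65 and 8.83 without (numbers 2, 3, 4 and 5). The groups overlapped, and in both treatments the arrays numbered 4 and 5 were the higher ones. Over all arrays the log2 difference was 0.33 (SE 0.15, 95% interval 0.02 to 0.65, limma's adjusted p = 0.193). With replicate number as a fixed block it was 0.48 (adjusted p = 0.00172), but as a random block 0.36 (adjusted p = 0.0535). On arrays numbered 1 to 3 alone it was 0.55 (adjusted p = 0.000241). Between arrays of the same number, IL-22 minus untreated, it was 0.42, 0.66 and 0.37 for numbers 2, 3 and 5, so all 3 pairs ran the same way.

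Nfkbia had 10.67, 10.8, 10.59 and 11.75 with IL-22, against 10.49, 10.48, 11.47 and 11.67 without. Its level followed the number more than the treatment. The log2 difference was -0.07 (SE 0.21, 95% interval -0.51 to 0.36, limma's adjusted p = 0.92). It was 0.20 on arrays numbered 1 to 3 (adjusted p = 0.101) and 0.18 on those numbered 4 and 5 (adjusted p = 0.728). Arrays of the same number differed by 0.31, 0.11 and 0.08. Nfkbie had 7.39, 7.49, 7.47 and 7.65 with IL-22, against 7.37, 7.46, 7.46 and 7.64 without. The values of both groups were nearly the same, and the log2 difference was 0.02 (95% interval -0.18 to 0.21, adjusted p = 0.964). It was 0.04 on arrays numbered 1 to 3 and 0.10 on those numbered 4 and 5.

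**Figure D3:**
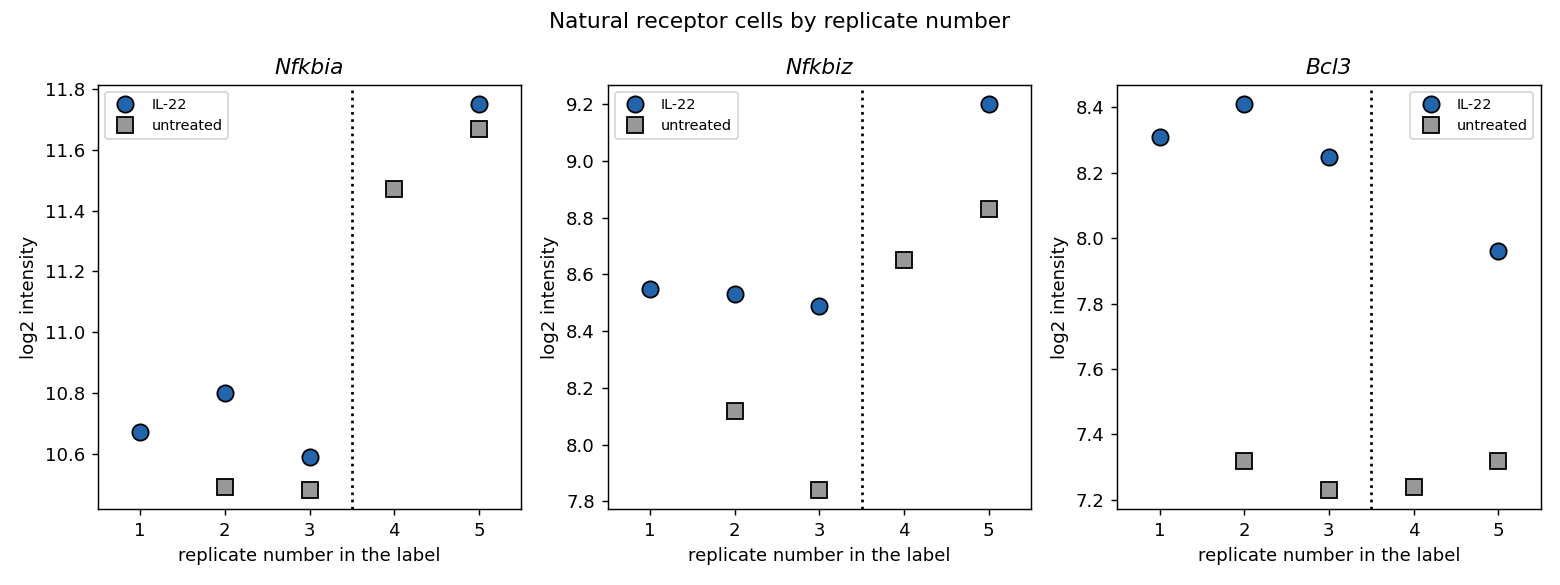
Log2 intensity of Nfkbia, Nfkbiz and Bcl3 on the natural receptor arrays against the replicate number in the label, with IL-22 as circles and untreated as squares. The dotted line parts numbers 1 to 3 from 4 and 5. Nfkbia steps up to at least 11.47 on the right in both treatments, while Bcl3 without IL-22 stays between 7.23 and 7.32.

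The response to GFP-mCherry and the response to IL-22 differed for 5 members in a test of the difference itself, where 9.23% of all genes were called higher and 4.40% lower. The GFP-mCherry response was larger for Nfkbia by 3.30 on the log2 scale (SE 0.27, limma's adjusted p = 1.07e-09). It was larger for Nfkbie by 2.38 (SE 0.12, adjusted p = 4.62e-14), for Nfkbiz by 1.99 (SE 0.20, adjusted p = 2.25e-08) and for Nfkbid by 1.02 (SE 0.12, adjusted p = 5.73e-07). Bcl3 ran the other way, with a difference of -0.61 (SE 0.13, 95% interval -0.89 to -0.34, adjusted p = 0.00206), so IL-22 gave the larger rise. On low numbers alone (natural 1 to 3, synthetic 7 to 11) the Bcl3 difference was -0.87 (adjusted p = 2.39e-05). On high numbers alone, with the lone IL-22 array, it was -0.17 (adjusted p = 0.698), and the change between number ranges was not tested. Nfkbib differed by 0.16 (95% interval -0.04 to 0.37, adjusted p = 0.322). On low numbers alone the other differences were 3.06 for Nfkbia, 2.28 for Nfkbie, 1.82 for Nfkbiz and 0.96 for Nfkbid, each past the threshold. Line and ligand differ together in this test and cannot be told apart. The lines also started from different levels. Nfkbia averaged 8.51 without and 11.73 with GFP-mCherry in synthetic cells, against 11.03 without and 10.95 with IL-22 in natural cells. Untreated Nfkbie and Nfkbiz were lower in synthetic cells too, as given below.

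The mCherry-Fc response minus the IL-22 response was called for 2 members, where 8.76% of all genes were called higher and 4.60% lower. Nfkbie was higher by 0.49 (SE 0.12, 95% interval 0.24 to 0.74, limma's adjusted p = 0.00734). Bcl3 was lower, at -0.85 (SE 0.13, 95% interval -1.12 to -0.57, adjusted p = 6.05e-05). On low numbers alone they were 0.44 for Nfkbie (adjusted p = 0.0213) and -0.95 for Bcl3 (adjusted p = 1.14e-05). On high numbers alone both missed the threshold, at 0.43 for Nfkbie (adjusted p = 0.342) and -0.56 for Bcl3 (adjusted p = 0.121). Nfkbid was then called, at 0.61 (adjusted p = 0.0186), against 0.17 over all arrays (adjusted p = 0.365).

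Without ligand, 4 members (5 after quantile normalization, with Bcl3) were lower in synthetic than in natural receptor cells and none was higher, where 6.62% of all genes were called lower and 8.60% higher. Nfkbia averaged 8.51 ± 0.15 (log2 intensity, SD, n = 6) in untreated synthetic cells and 11.03 ± 0.63 (n = 4) in untreated natural cells. The log2 difference was -2.52 (SE 0.19, 95% interval -2.92 to -2.12, 5.74-fold, limma's adjusted p = 1.98e-10). Synthetic cells given GFP-mCherry averaged 11.73 ± 0.14 (n = 6) for the same probe set, a pair of groups that was not tested. The difference was -2.05 against the natural arrays numbered 2 and 3 (adjusted p = 4.91e-10) and -2.99 against those numbered 4 and 5 (adjusted p = 2.8e-08), each with the synthetic arrays of its own range.

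Nfkbiz averaged 7.67 ± 0.11 (n = 6) in untreated synthetic cells and 8.36 ± 0.46 (n = 4) in untreated natural cells, a log2 difference of -0.69 (SE 0.14, limma's adjusted p = 0.000736). It was -0.40 on low numbers (adjusted p = 0.00537) and -0.99 on high numbers (adjusted p = 3.19e-05). Nfkbie averaged 6.81 ± 0.12 in synthetic and 7.48 ± 0.12 in natural cells, a difference of -0.67 (SE 0.09, adjusted p = 2.52e-06), and -0.56 on low numbers (adjusted p = 0.0011). Nfkbib averaged 9.29 ± 0.09 in synthetic and 9.60 ± 0.09 in natural cells, a difference of -0.31 (SE 0.07, adjusted p = 0.00239), and -0.34 on low numbers (adjusted p = 0.00652). These 3 genes and Nfkbia had no overlap between the lines, with synthetic cells lower, and neither had Bcl3, as for 4.86% of all genes. Bcl3 averaged 7.01 ± 0.21 in synthetic and 7.28 ± 0.05 in natural cells, a difference of -0.26 (95% interval -0.46 to -0.07) that missed the threshold (adjusted p = 0.0601). It was -0.12 on low numbers (adjusted p = 0.295) and -0.40 on high numbers. Nfkbid averaged 7.49 ± 0.06 in synthetic and 7.58 ± 0.07 in natural cells, which overlapped and differed by -0.09 (95% interval -0.26 to 0.09, adjusted p = 0.617). On low numbers the Nfkbid difference was -0.13 (adjusted p = 0.319). The lines lie in replicate numbers of their own, so number and line cannot be told apart here.

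Across all 26 arrays, Nfkbie and Nfkbiz varied together most closely (Pearson r = 0.96), followed by Nfkbie with Nfkbid (r = 0.91) and Nfkbia with Nfkbiz (r = 0.88). Bcl3 correlated with Nfkbib at 0.71, with Nfkbia at 0.49, with Nfkbiz at 0.31, with Nfkbie at 0.19 and with Nfkbid at 0.18. These values are descriptions over 26 arrays that share 5 groups, so they follow mainly the group means. After each group's mean was removed, Nfkbia and Nfkbiz correlated at 0.93, Nfkbib and Nfkbid at 0.73, Nfkbia and Nfkbie at 0.54, Nfkbie and Nfkbiz at 0.53, and Nfkbie and Nfkbid at 0.

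Among other genes with an SD of at least 0.2, those most like Nfkbia over the 26 arrays were Slc2a6 (r = 0.941), Gpr84 (r = 0.918) and Ltb (r = 0.913), and the most opposite was Bex6 (r = -0.907). Nfkbie and Nfkbiz shared their nearest genes besides each other. Zc3h12a correlated with Nfkbie at 0.942 and with Nfkbiz at 0.968, and Tnfaip3 correlated with Nfkbie at 0.94 and with Nfkbiz at 0.941. Nfkbib was most like Nek6 (r = 0.946), Nfkb2 (r = 0.913) and Rrp1b (r = 0.911). Nfkbid was most like Ehbp1l1 (r = 0.936), Ptgir (r = 0.918) and Tfe3 (r = 0.911). The genes nearest Bcl3 were Ppp1r16b (r = 0.958), Gpr171 (r = 0.954) and Susd6 (r = 0.952), and the most opposite was Hbp1 (r = -0.951).

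The proteins that the family binds and the machinery that degrades it were read from fixed lists of the pathway. The counts of these lists are set against the shares of all genes given above, 14.2% higher and 11.8% lower with GFP-mCherry, 14.0% and 13.0% with mCherry-Fc, and 5.39% and 6.03% with IL-22. Of the 4 NF-kB subunit genes measured, GFP-mCherry raised Nfkb2 by 1.13 (log2, limma's adjusted p = 1.3e-13), the p100 gene whose product also acts as an inhibitor of kappa B, and Relb by 0.82 (adjusted p = 4.94e-07). It lowered Rel (-0.32, adjusted p = 0.017), a call lost when arrays were centred on their medians. mCherry-Fc raised Nfkb2 by 0.16 (adjusted p = 0.0413) and lowered Rel (-0.42, adjusted p = 0.00279). IL-22 raised Nfkb2 by 0.53 (adjusted p = 2.72e-06), Rela by 0.46 (adjusted p = 0.00185) and Relb by 0.39 (adjusted p = 0.0278), and on arrays numbered 1 to 3 alone it again raised 3 and lowered none. The subunits' median log2 difference was 0.39 with GFP-mCherry, -0.10 with mCherry-Fc and 0.43 with IL-22. Nfkb2 under mCherry-Fc lost its call in 9 of 25 alternatives, and Relb under IL-22 in 7 of 21.

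Of 9 kinases and adaptors of the IKK complex and above it, GFP-mCherry raised 2 and lowered none (1 lower after quantile normalization), with Ikbke, an inducible IKK-related kinase, up by 0.75 (log2, limma's adjusted p = 8.95e-06). mCherry-Fc raised Ikbkb by 0.21 (adjusted p = 0.0256), and 4 of the 9 when arrays were centred, but none on low numbers alone. IL-22 raised 1, Map3k14, by 0.24 (adjusted p = 0.0108) and lowered 2, of which Tab1 differed by -0.34 (adjusted p = 0.0128). On arrays numbered 1 to 3 alone Map3k14 lost its call, which left none higher and 2 lower. Of 9 genes for the ubiquitin ligase that degrades inhibitor of kappa B proteins, GFP-mCherry and mCherry-Fc each raised 4 and lowered none (3 and, for mCherry-Fc, 1 lower after quantile normalization). Nedd8, which activates the ligase, rose by 0.42 with GFP-mCherry (adjusted p = 7.27e-07) and by 0.32 with mCherry-Fc (adjusted p = 5.23e-05). IL-22 raised 1, Ube2d3, by 0.33 (adjusted p = 9.96e-05), and on arrays numbered 1 to 3 alone 1 was higher and 1 lower.

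Other negative regulators of NF-kB rose with the family under GFP-mCherry, 8 of 12 with none lower and a median log2 difference of 0.36. Zc3h12a, an RNase that degrades inflammatory mRNA, rose by 2.20 (limma's adjusted p = 8.87e-17), and Tnfaip3, the ubiquitin editor A20, by 2.01 (adjusted p = 1.7e-12). mCherry-Fc raised 4 of 12, the most by 0.32 (Otulin, adjusted p = 0.00136), and 2 of 12 after quantile normalization or on low numbers alone. IL-22 raised 4 of 12 and lowered 2, with Tnip3, an A20 partner, up by 1.99 (adjusted p = 2.75e-11) and Zc3h12a by 0.82 (adjusted p = 8.84e-07). On arrays numbered 1 to 3 alone the IL-22 counts were again 4 and 2. Tnfaip3 was among the 2 lower with IL-22, and lost that call in 8 of 21 alternatives.

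Of 22 effector genes that NF-kB is known to switch on, GFP-mCherry raised 9 and lowered 2, mCherry-Fc raised 5 and lowered 3, and IL-22 raised 9 and lowered none. The lower calls under both synthetic ligands were lost when arrays were centred or after quantile normalization. Under mCherry-Fc, centring gave 6 higher and quantile normalization 3. On low numbers alone mCherry-Fc again raised 5 and lowered 3, and GFP-mCherry raised 9 and lowered 1. On arrays numbered 1 to 3 alone IL-22 raised 10 and lowered 1. Icam1, an adhesion molecule, rose by 1.45 with GFP-mCherry (log2, limma's adjusted p = 8.18e-13) and by 1.04 with IL-22 (adjusted p = 1.4e-08). Tnf, the inflammatory cytokine, rose by 1.96 with GFP-mCherry (adjusted p = 3.82e-09) and 1.85 with IL-22 (adjusted p = 1.58e-07). The 5 raised by mCherry-Fc were Icam1, Tnf, Gadd45b, Bcl2l1 (0.70, adjusted p = 9.49e-09) and Ier3 (0.95, adjusted p = 0.00859). Icam1, Tnf and Ier3 were called higher with GFP-mCherry than with mCherry-Fc. Ltb, which encodes lymphotoxin beta, rose by 1.48 with GFP-mCherry (adjusted p = 1.2e-08). Of 14 genes known to depend on nuclear inhibitor of kappa B proteins in mouse or human cells, each ligand raised Il6, by 1.78 with GFP-mCherry (adjusted p = 2.7e-05), 0.81 with mCherry-Fc (adjusted p = 0.0314) and 3.24 with IL-22 (adjusted p = 3.68e-08). The mCherry-Fc call was lost in 9 of 25 alternatives. IL-22 also raised Il10 by 1.24 (adjusted p = 2.63e-08), with 3 of the 14 called higher and none lower, also on arrays numbered 1 to 3. GFP-mCherry lowered 2, Ccl2 (-0.39, adjusted p = 0.00108) and Foxp3 (-0.21, adjusted p = 0.00868), and 1 after centring or quantile normalization. mCherry-Fc lowered 4, Il2, Ccl2, Ccl20 and Foxp3, most of all Ccl2 (-0.29, adjusted p = 0.0132), and none after centring or quantile normalization. The median of these 14 genes lay between -0.14 and -0.02 in the 3 comparisons.

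For most STAT target genes IL-22 gave the largest rise, as it did for Bcl3 of the family, but not for Pim1 and Myc. IL-22 raised all 12, with a median log2 difference of 1.68 (2.09 and again all 12 on arrays numbered 1 to 3), while GFP-mCherry raised 8 with a median of 0.68 and mCherry-Fc 9 with a median of 0.47. Socs3, the feedback inhibitor of STAT3 signalling, rose by 4.30 with IL-22 (limma's adjusted p = 7.24e-24), by 1.02 with GFP-mCherry (adjusted p = 2.46e-11) and by 0.94 with mCherry-Fc (adjusted p = 3.45e-10). Socs3 differed by 0.08 between GFP-mCherry and mCherry-Fc (SE 0.07, adjusted p = 0.824). Pim1 rose by 2.39 with GFP-mCherry (adjusted p = 4.7e-12) and by 2.44 with mCherry-Fc (adjusted p = 8.24e-12). Myc rose by 0.97 (adjusted p = 7.37e-11) and 1.40 (adjusted p = 2.78e-13). In tests of each synthetic response minus the IL-22 response, 9 of the 12 were lower and 2, Pim1 and Myc, were higher. Of the 12, Cish (0.63, adjusted p = 0.00112) and Il4ra (0.35, adjusted p = 0.00389) were called higher with GFP-mCherry than with mCherry-Fc, and Myc lower (-0.42, adjusted p = 0.000636).

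**Figure D4:**
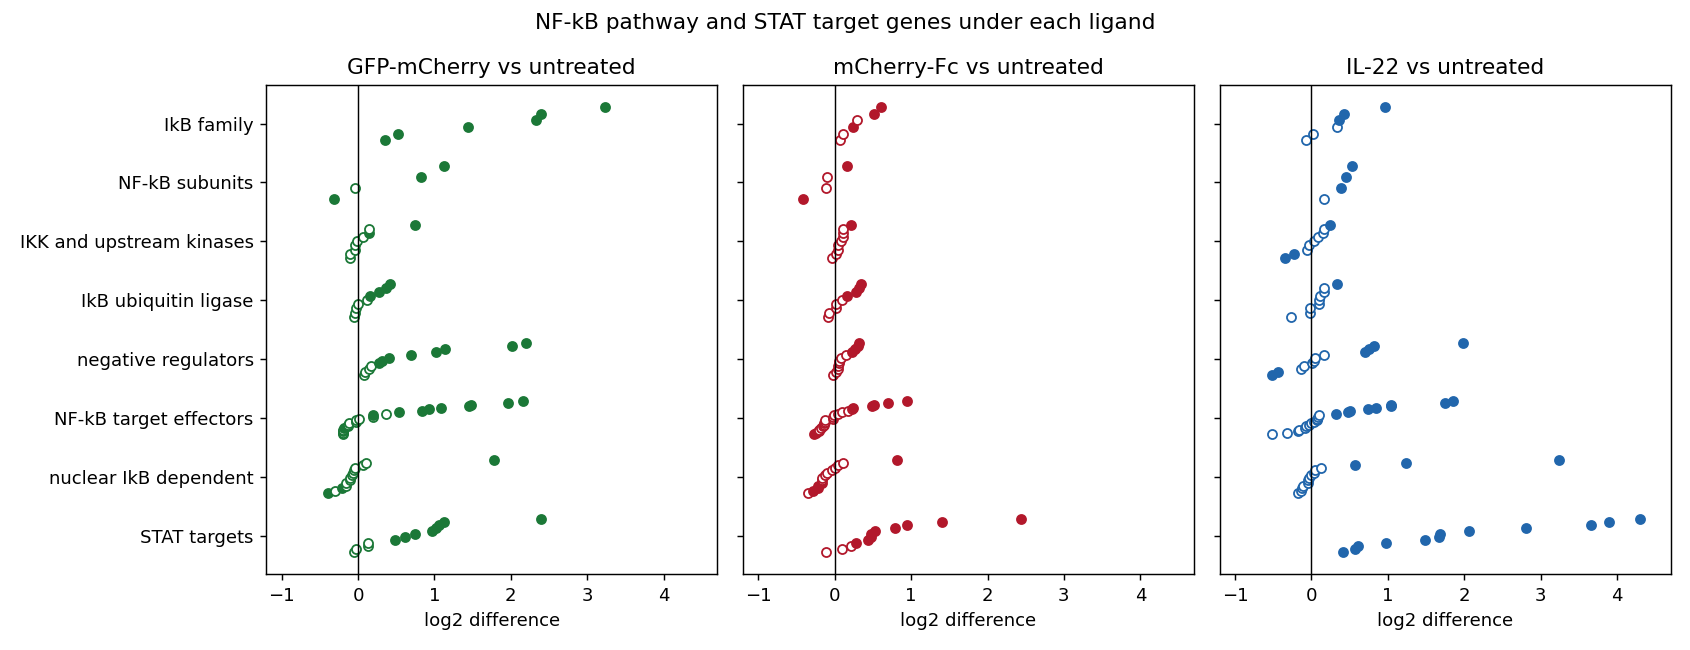
Log2 difference from untreated cells for each gene of the family and of 7 pathway lists under the 3 ligands, 1 point per gene, filled where limma's adjusted p is under 0.05. The IkB family and the negative regulators reach beyond 2 under GFP-mCherry, as do the STAT targets with Pim1 at 2.39. The STAT targets also reach 2.44 under mCherry-Fc (Pim1) and 4.30 under IL-22.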

How the data were processed

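Total RNA from 26 samples was hybridised to Affymetrix Mouse Gene arrays, 1 array per sample. The authors deposited log2 intensity values, 1 per probe set, from Affymetrix Expression Console 4.0, per the submitters' processing notes. The summary algorithm and background correction are not given in the sources used here. No labels say that replicates were separate cultures, so p-values measure the spread between these arrays, which may be technical, and the number of arrays limits the precision.

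Of 35556 probe sets, 21789 had 1 gene symbol, 1621 several and 12146 none in GEO's platform annotation. Entrez identifiers matched current records for 21698, and 91 kept the annotation's name. Where a gene had more than 1 probe set (999 genes), the brightest on average was kept. All 19938 genes were fitted in one model of the 5 groups (R 4.3.3, limma 3.58.1, lmFit and eBayes), without a filter, two-sided, with Benjamini-Hochberg adjustment over all genes and a threshold of 0.05. The fit was tested on simulated data.

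Groups came from sample titles. The members, pathway lists and number ranges were chosen with earlier results of these data known. Members are always named, and of each pathway list up to 4 called genes with the smallest p in each ligand comparison, with others only to spell out small counts. For likeness, 3 genes per end were taken. Nfkb1, Chuk and Traf3 are not analysed here.

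Titles give replicate numbers that groups share. Deviations from group means of equally numbered arrays correlated at 0.313 to 0.621 for IL-22 and untreated, 0.26 to 0.466 for mCherry-Fc and untreated, 0.105 to 0.271 for GFP-mCherry and mCherry-Fc, and -0.146 to 0.417 for GFP-mCherry and untreated. Numbers were therefore read as pairing arrays in the first 3 comparisons, where every value was above 0.1, and not in the last. The equally numbered array was the closest for IL-22 numbers 2 and 5 but not 3. For mCherry-Fc against untreated, and for GFP-mCherry against mCherry-Fc, it was for number 13 but not 9 and 14. For GFP-mCherry against untreated it was for 7 and 13 but not 9, 11, 12 and 14. Pairing of single arrays is thus not shown, and the blocked values assume it. Alternatives covered normalization, centring, probe set choice, filters, the variance prior, array weights and the groups fitted. They also covered replicate number as a fixed or a random block, number ranges and each array left out.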

Additional observations from a re-analysis of the deposited data

Results flagged for a closer look

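In 4 of the 30 sets of arrays formed by a member and a group, 1 array stood apart by Dixon's test at the 5% level. It lay farther from its nearest neighbour than the test allows, and chance flags about 1 in 20 such sets. That rate assumes arrays of 1 kind in a set, and members correlated within groups, so the 4 cannot be set against it. The IL-22 array numbered 5, the only IL-22 array of high number, accounted for 3 of the 4 sets. It read 9.75 for Nfkbib (nearest other IL-22 array 10.01), 7.65 for Nfkbid (nearest 8.09) and 9.2 for Nfkbiz (nearest 8.55), so it was low for the first pair of genes and high for Nfkbiz. The fourth was the GFP-mCherry array numbered 12, at 10.27 for Nfkbiz (nearest 10.03).

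The response to a synthetic ligand differed from the response to IL-22 in a test of the difference itself. GFP-mCherry minus IL-22 was 3.30 for Nfkbia, 2.38 for Nfkbie, 1.99 for Nfkbiz, 1.02 for Nfkbid and -0.61 for Bcl3 (log2). mCherry-Fc minus IL-22 was 0.49 for Nfkbie and -0.85 for Bcl3. Untreated Nfkbia, Nfkbie and Nfkbiz were lower in synthetic than in natural cells, as given above.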

How the results depend on the processing

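Over 1098 recomputed member differences, 1043 kept direction and side of the threshold, 19 gained a call, 14 lost one and 22 uncalled ones changed sign. All 6 members stayed called for GFP-mCherry against untreated in all 25 alternatives. Calls of members for IL-22 fell to 1 on high numbers alone, those for mCherry-Fc became 5 with arrays centred on their medians, and those for mCherry-Fc minus IL-22 came to 1 on high numbers alone, where both were lost and Nfkbid (0.61) was gained. Leaving out 1 array at a time gave 3 to 4 members for IL-22, 6 for GFP-mCherry, 3 for mCherry-Fc and 4 to 5 for GFP-mCherry against mCherry-Fc. Nfkbib in the last comparison was 0.26 without GFP-mCherry number 12 (limma's adjusted p = 0.0508) and 0.25 without mCherry-Fc number 9 (adjusted p = 0.0522). Nfkbiz under IL-22 was 0.49 without untreated natural number 5 (adjusted p = 0.027). Bcl3 between the untreated lines was -0.30 without untreated synthetic number 7 (adjusted p = 0.0288) and -0.29 without number 9 (adjusted p = 0.0404).

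Under IL-22, Nfkbia was 0.17 with the replicate block, 0.19 with number range as a batch term, 0.20 on low and 0.18 on high numbers, and -0.34 to 0.14 with single arrays left out. Nfkbie was -0.03 to 0.07 with single arrays left out. Nfkbia under mCherry-Fc was -0.01 after quantile normalization. For mCherry-Fc minus IL-22, Nfkbia was -0.03 with the replicate block, -0.12 with the batch term, -0.16 on low and -0.08 on high numbers, and -0.07 to 0.41 with single arrays left out. There Nfkbiz was 0.05 after centring and -0.20 to 0.13 with single arrays left out, Nfkbid -0.03 on low and Nfkbib 0.14 on high numbers. The cause was not tested. Replicate number was used as a fixed block and, in another fit, as a random block. Blocked values that changed a call in either form stand beside their results, and neither form changed another member call. Other blocked member values are of the fixed block. In GFP-mCherry against untreated, where the numbers were not read as pairing arrays, all 6 members stayed called with the block. Neither the block as a fixed term nor the batch term could be fitted between the untreated lines, which share no numbers.

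Centring raised the GFP-mCherry difference by 0.10 and the mCherry-Fc difference by 0.11, and the share of called genes that were higher was then 88.5% for GFP-mCherry (54.8% as reported) and 88.8% for mCherry-Fc (51.9% as reported). It was 83.2% for GFP-mCherry minus IL-22 (67.7% as reported) and 82.8% for mCherry-Fc minus IL-22 (65.6% as reported). Counts of called genes moved by over 1.5 times as follows. For IL-22 there were 2277 as reported, 759 on high numbers, with 1 IL-22 array, and 1222 in a fit of the groups compared alone. For mCherry-Fc there were 5371 as reported and 3234 after quantile normalization. For GFP-mCherry against mCherry-Fc there were 218 as reported, 478 with array weights, 460 in the groups alone, 100 with the replicate block, 469 with the batch term and 504 on low numbers. GFP-mCherry minus IL-22 gave 2718 as reported, 4153 with the batch term, 4583 on low and 916 on high numbers. mCherry-Fc minus IL-22 gave 2664 as reported, 4279 with the batch term, 4253 on low and 872 on high numbers. The untreated lines gave 3034 as reported, 1722 in the groups alone and 5750 on high numbers.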

Other observations

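Untreated synthetic and untreated natural receptor cells also differed in other genes around the family. Of 22 NF-kB effector genes, 11 were lower in synthetic cells and none was higher, with a median log2 difference of -0.29, where 6.62% of all genes were called lower. On low replicate numbers alone 7 were lower. Of 12 negative regulators, 5 were lower and none was higher, also on low numbers alone. Tnip3, an A20 partner, averaged 4.95 in untreated synthetic cells and 8.76 in untreated natural cells (log2 difference -3.81, SE 0.13, n = 6 and 4, limma's adjusted p = 3.38e-18). Tnfaip3 averaged 7.47 in synthetic cells and 8.25 in natural cells (-0.78, SE 0.14, adjusted p = 0.00015). Its difference was -0.42 on low numbers and -1.15 on high numbers, the natural arrays of high number being those with high myeloid marker levels, whose part was not tested. Nfkb2 (-0.61, SE 0.07, adjusted p = 1.15e-07) and Relb (-0.54, SE 0.11, adjusted p = 0.000838) were the lower ones of 4 subunit genes.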
